A study of Homo sapiens with 3 samples.

Results

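The INK4, cyclin D and RB axis is the set of genes that governs entry into the DNA synthesis phase of the cell cycle. The genes were chosen by name, as the count records whose symbol is CDKN2A, CDKN2B, CDKN2C, CDKN2D, CDK4, CDK6, CCND1, CCND2, CCND3 or RB1, which gave 10 of the 22824 genes measured, held in 20 records. RNA was sequenced from the human cell line MDA-MB-231, derived from a triple-negative breast cancer, which carries a p53 missense mutation and is known to lack the CDKN2A and CDKN2B locus. All 3 libraries (n = 3) come from cells given a control siRNA at 50 nM in 2 transfections at an interval of 24 h, with harvest 48 h after the last one, and the labels call them biological replicates. The other siRNA of the study is not analysed here, so the values give levels after control transfection and how far the 3 cultures differed, and no effect of a treatment was tested.

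D-type cyclins bind and activate the kinases CDK4 and CDK6, which phosphorylate the retinoblastoma protein RB. Phosphorylated RB releases the E2F transcription factors, which then switch on genes for DNA replication. The 4 INK4 proteins bind CDK4 and CDK6 directly and keep the cyclins from activating them, and loss of CDKN2A is among the most frequent lesions of human tumours. CDKN2A uses a pair of separate starts: the downstream one gives the INK4 protein p16, and the upstream one gives ARF, which stabilises p53 by binding MDM2.

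Gene counts totalled 68664126 in replicate 1, 84880547 in replicate 2 and 54512366 in replicate 3, and 12681 of 22824 genes (55.6%) reached 1 CPM (counts relative to the scaled library size) in each library. Of the line's marker genes, VIM, KRT8, KRT18 and CD44 had means of 179 TPM or more, and ESR1, PGR and CDH1 had means of 0.64 TPM or less. TPM, a relative transcript number, divides counts by transcript length, and levels of different genes are compared in that unit alone. Of 10 markers of leukocytes, fibroblasts and endothelial cells, LYZ at 14.8 ± 1.76 and PECAM1 at 1.12 ± 0.189 TPM (SD, n = 3) reached 1 CPM in each library.

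CDKN2A and CDKN2B had no counts in any of the 3 libraries. All 4 records of CDKN2A, which include those of p16 and of ARF, stood at 0, as did both records of CDKN2B, the gene of the INK4 protein p15. A count of 0 here allows up to 0.0877, 0.0708 and 0.11 CPM in replicates 1, 2 and 3, which corresponds to 3 read pairs, or 6 counts where each mate was counted, and covers counting error only. For CDKN2A this is 0.182, 0.145 and 0.23 TPM, and for CDKN2B 0.0566, 0.0452 and 0.0716 TPM. Over all genes 17.9% had 0 counts in all libraries, so 2 of 10 members at 0 is near the share of the whole table. A count of 0 does not tell a missing gene from one that is not transcribed: of 18 genes of other tissues, 11 also had 0 counts in all libraries, such as the liver transporter TTR and the sperm protein PRM1. The highest of the 18 were PRSS1 at 4.03 and NPPA at 1.65 TPM. The other 8 members were all at 1 CPM or more in each library.

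The reference sequences before the starts of INK4 genes are shown. All records of CDKN2A and CDKN2B were at 0, while CDKN2D, another INK4 gene, was transcribed. The line is known to lack the CDKN2A and CDKN2B locus, and the part of these sequences in the counts was not tested. They are the 250 bases before each start in RefSeq (build GRCh38.p14, minus strand, written 5′ to 3′), and capitals mark GGGCGG or its reverse complement CCGCCC, the core of the GC box bound by SP1.
CDKN2A upstream start, chr9:21995325-21995574: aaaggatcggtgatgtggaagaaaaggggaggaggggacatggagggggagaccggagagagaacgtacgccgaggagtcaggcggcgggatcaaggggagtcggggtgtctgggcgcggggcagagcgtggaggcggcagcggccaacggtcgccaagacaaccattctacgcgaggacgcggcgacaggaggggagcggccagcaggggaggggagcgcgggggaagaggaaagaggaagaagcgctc
CDKN2A downstream start, chr9:21974858-21975107: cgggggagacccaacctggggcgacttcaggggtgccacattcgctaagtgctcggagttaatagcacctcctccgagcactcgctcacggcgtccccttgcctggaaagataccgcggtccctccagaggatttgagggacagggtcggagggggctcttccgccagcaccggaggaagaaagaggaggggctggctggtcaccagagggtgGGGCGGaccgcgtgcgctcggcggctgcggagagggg
CDKN2B, chr9:22009306-22009555: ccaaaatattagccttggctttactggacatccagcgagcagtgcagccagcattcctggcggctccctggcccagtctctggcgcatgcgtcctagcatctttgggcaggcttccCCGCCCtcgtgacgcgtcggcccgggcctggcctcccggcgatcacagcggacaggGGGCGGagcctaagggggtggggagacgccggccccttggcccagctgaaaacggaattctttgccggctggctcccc
CDKN2D, chr19:10568980-10569229: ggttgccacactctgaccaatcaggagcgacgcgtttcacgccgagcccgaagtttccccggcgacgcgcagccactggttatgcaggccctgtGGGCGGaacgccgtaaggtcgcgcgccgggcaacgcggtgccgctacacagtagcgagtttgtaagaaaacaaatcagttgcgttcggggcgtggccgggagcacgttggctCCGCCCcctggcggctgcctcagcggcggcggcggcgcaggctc
The GC box core occurred 0 times before the upstream start of CDKN2A, 1 time before its downstream start, and 2 times each before CDKN2B and CDKN2D. The bases after this upstream start were not found in a GENCODE transcript, unlike those after the other INK4 starts. Whether it is the start used for ARF was not tested. On either strand the GC box core was present in 42.6% of the 35116 promoters of the same table and length. CDKN2C, the other transcribed INK4 gene, has 3 starts in the table, with 0, 5 and 1 matches at a GC content of 45.6%, 77.2% and 48.8%. The GC content of the printed stretches was 66.8%, 66.8%, 66.4% and 67.6%, against a median of 58.0% over all promoters.

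Counts were also near 0 in the neighbours of CDKN2A and CDKN2B on the short arm of chromosome 9. Of the 38 measured genes from MLLT3 to PLAA in RefSeq order, 30 consecutive ones, from MIR491 to ELAVL2, stayed below 1 CPM in at least 1 library, and 25 of these had 0 counts in all 3. The whole stretch held 10, 10 and 6 counts in replicates 1, 2 and 3, of which 0, 4 and 3 were from its first gene, the microRNA gene MIR491. The microRNA genes MIR4473 and MIR4474 were also at 0, though they come before the stretch, after MLLT3 and before FOCAD in this order. The order is by gene start, so it does not show whether a gene lies inside another, MIR491 included. The order was taken from GRCh38.p14, while the reads were mapped to hg19, so no positions are given. The rule on named genes covered 18 neighbours, of which 17 were matched and 9 were at 0 in all libraries; the other genes of the stretch, mostly interferon genes, were added after the values were seen.

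MTAP, the methionine salvage enzyme next to CDKN2A and a widely transcribed gene, had 0, 0 and 3 counts. CDKN2B-AS1, the antisense transcript ANRIL that overlaps CDKN2B, had 0 counts in all of its 13 records, and CDKN2A-DT, listed in the files as CDKN2A-AS1, had 0 as well. KLHL9, a substrate adaptor of a ubiquitin ligase, had 4, 4 and 0 counts, and the neuronal RNA-binding gene ELAVL2 had 6, 0 and 0. HACD4, IFNB1, IFNW1, IFNA1, IFNE, MIR31HG and DMRTA1 were at 0 in every library. Of the 23 protein-coding genes in the stretch 16 are interferon genes, most of them inducible and silent in most cells.

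On the centromeric side counts resumed at TUSC1, with 407, 480 and 294 (6.97 ± 0.318 TPM, n = 3). Beyond it CAAP1, an apoptosis regulator, was at 30.2 ± 2.09 and PLAA, a ubiquitin-binding protein, at 43.6 ± 0.98 TPM. On the telomeric side FOCAD, a focal adhesion gene, had 270, 408 and 212 counts (1.74 ± 0.2 TPM), and MLLT3, a reader of acylated histones, was at 5.78 ± 0.42 TPM. TUSC1, CAAP1, PLAA, MLLT3 and FOCAD were thus the 5 of 17 matched neighbours (29.4%) at 1 CPM or more in each library, against 55.6% of all genes. IZUMO3 was not matched to a record.

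**Figure D1:**
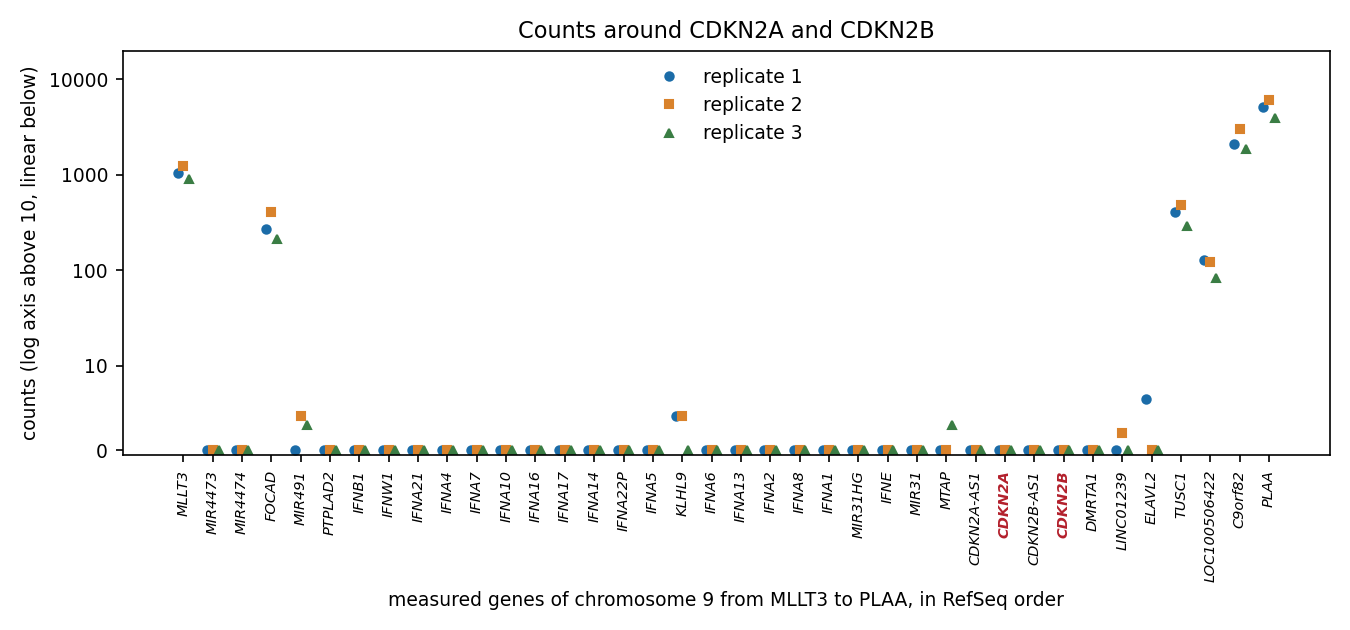
Counts in each library (points, vertical axis) for the 38 measured genes of chromosome 9 from MLLT3 to PLAA in RefSeq order (horizontal axis). The 30 genes from MIR491 to ELAVL2, with CDKN2A and CDKN2B in red, sit at or near 0 between the counted genes FOCAD and TUSC1.

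The other INK4 genes, CDKN2C and CDKN2D, were both transcribed at similar levels. CDKN2C, which encodes p18, had 5310, 6765 and 3989 counts and stood at 93.8, 95.6 and 89.3 TPM in replicates 1, 2 and 3 (mean 92.9 ± 3.29 SD, n = 3). CDKN2D, which encodes the p19 INK4 protein, had 3320, 4316 and 2644 counts and stood at 86.1, 89.5 and 86.8 TPM (87.5 ± 1.81). The ranges overlapped, and CDKN2D was 0.942 ± 0.028 of CDKN2C (log2 ratio -0.09 ± 0.04, below 0 in 3 of 3 libraries). That order rests on the transcript length: with the longest transcript of each gene CDKN2C was at 78.7 and CDKN2D at 103 TPM. Since CDKN2A and CDKN2B were at 0, CDKN2C made up 51.5% ± 0.741 and CDKN2D 48.5% ± 0.741 of the INK4 transcripts. By rank over the 18515 genes with a count and a length, CDKN2C was at percentile 88.9 and CDKN2D at percentile 88.3.

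The records of CDKN2C did not count alike. Its shorter record held 3143, 4114 and 2481 counts, 59.2%, 60.8% and 62.2% of the longer one (linked transcripts of 1220 and 2086 bases). The records of CDKN2D differed by little, the lower one holding 98.1% of the higher over the 3 libraries.

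Among the kinases CDK4 exceeded CDK6 per length of transcript. CDK4 had 8532, 10790 and 6740 counts and stood at 151.5, 153 and 152 TPM (152 ± 1.01, n = 3), percentile 93.4. CDK6 had more counts, 11761, 14664 and 10386, but over a transcript of 11612 bases against 2076 for CDK4, and stood at 37.3, 37.2 and 41.7 TPM (38.8 ± 2.57), percentile 75.5. CDK4 was thus 4.06, 4.12 and 3.63 times CDK6, and the ranges did not overlap. This order turns on the length of CDK6. As counts without length the log2 ratio of CDK4 to CDK6 was -0.51 in place of 1.97, and CDK6 would be at 280.2 TPM with the 1465-base transcript that GENCODE links to its counted record. Both records of CDK6 held nearly the same counts. The one linked to 11612 bases had 99.5% of those of the counted one over the 3 libraries. The 1465-base link may thus be a fragment of the counted record. Results below with the length of the counted record alone use it. How far reads covered the long 3′ end of CDK6 was not tested.

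CCND1, the cyclin D most often amplified or overexpressed in breast cancer, was the highest of the 10 genes by the largest record of each. Its counts were 50183, 58214 and 37827, and it stood at 429.5, 399 and 409.9 TPM (413 ± 15.6, n = 3), place 357 of 18515 and percentile 98.1. CCND3 had 8802, 10662 and 6785 counts and stood at 152, 147 and 148 TPM (149 ± 2.47), percentile 93.3. CCND2 had only 291, 303 and 198 counts and stood at 1.66, 1.38 and 1.43 TPM (1.49 ± 0.148), percentile 32.2. CCND1 was 2.82, 2.704 and 2.76 times CCND3, with no overlap, and made up 73.2% ± 0.409 of the D-type cyclin transcripts, against 26.5% ± 0.425 for CCND3 and 0.263% ± 0.0177 for CCND2.

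CCND3 has 4 records, which held between 80.3% and 100% of the largest over the 3 libraries. With counts summed over records, which counts a shared read once per record, the log2 ratio of CCND1 to CCND3 was -0.39 in place of 1.47, and CCND1 made up 43.3% ± 0.533 of the D-type cyclin transcripts. In sum the D-type cyclins came to 563 ± 18.2 TPM and the kinases to 191 ± 2.25 TPM, a ratio of 3.09, 2.87 and 2.896 in replicates 1, 2 and 3. CDKN2C and CDKN2D together were 0.953, 0.972 and 0.911 of the 2 kinases. Both ratios turn on the length of CDK6: with the length of the counted record alone the cyclins were 1.24 ± 0.0723 and the inhibitors 0.393 ± 0.0252 times the kinases. Amounts of protein were not measured.

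RB1, the tumour suppressor at the end of the axis, was transcribed, with 10263, 12574 and 8760 counts. It stood at 78.9, 77.4 and 85.3 TPM (80.5 ± 4.21, n = 3), percentile 87.3, and its highest value lay below the lowest of CDKN2D, 86.1 TPM. The record count does not show whether the transcript is intact. RBL1, which encodes the related pocket protein p107, was at 31.0, 29.7 and 31.4 TPM, and RBL2, which encodes p130 and acts mainly in resting cells, at 22.3, 22.5 and 24.5 TPM. RB1 was 2.55, 2.604 and 2.71 times RBL1 and made up 59.9% ± 0.414 of the 3 pocket protein transcripts.

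In descending order, with the lengths used here, the members were CCND1, CDK4, CCND3, CDKN2C, CDKN2D, RB1, CDK6 and CCND2, followed by CDKN2A and CDKN2B at 0. The libraries' ranges overlapped between the neighbours CDK4 and CCND3 and between CDKN2C and CDKN2D. They did not overlap between the other neighbours, the closest being CDKN2D and RB1. CDK6 was 26.1-fold above CCND2. The order depends on length and records in all but the place of CCND2, which was the lowest of the 8 throughout. With the length of the counted record alone, which for CDK6 may be that of a fragment, CDK6 came second at 280.2 TPM. RB1 was then the gene above CCND2, 54.2-fold. With summed records CCND3, at 294 TPM, was above CCND1, at 225 TPM. With the longest transcript CDKN2C, at 78.7 TPM, was below both CDKN2D, at 103 TPM, and RB1, at 94.9 TPM. The median of the members' mean levels was 84.0 TPM, beside 23.3 TPM for all genes at 1 CPM or more in each library.

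**Figure D2:**
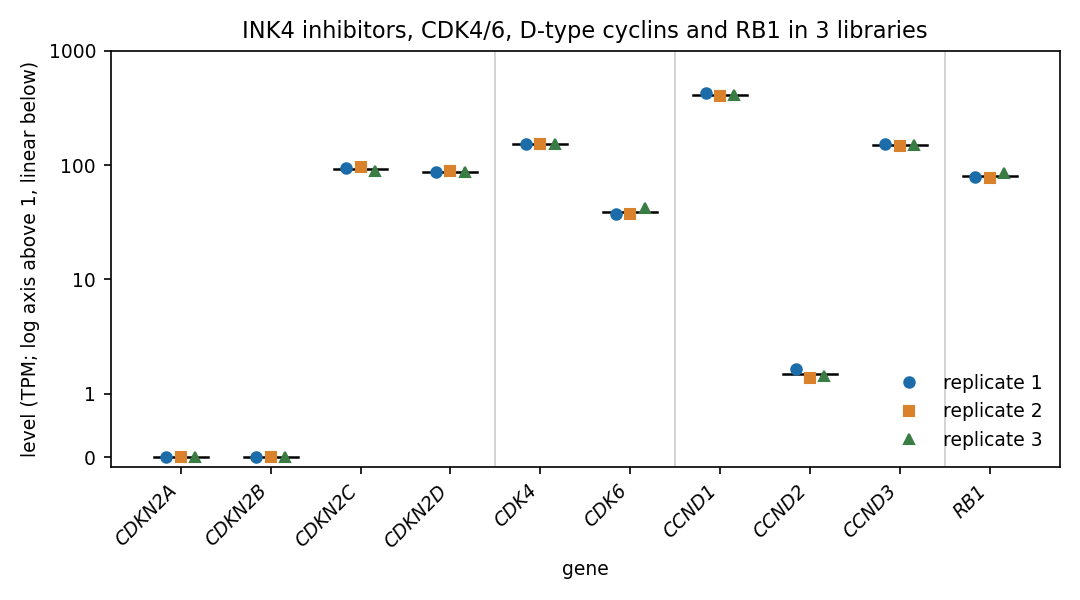
Level in TPM (vertical axis, log above 1 and linear below) of the 10 genes in each of the 3 libraries (points), with the mean as a line. CCND1 is highest near 413, CCND2 sits near 1.49, and CDKN2A and CDKN2B are at 0.

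The genes around the axis were taken from lists chosen for their roles. The CIP/KIP inhibitors, which bind cyclin and kinase complexes more broadly than the INK4 proteins, were all at 1 CPM or more. CDKN1A, which encodes p21, was at 62.8 ± 0.639, CDKN1B, which encodes p27, at 41.6 ± 2.64 and CDKN1C, which encodes p57, at 4.28 ± 0.5004 TPM (n = 3). In each library CDKN2C and CDKN2D lay above all of these.

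Of 11 regulators of the INK4 locus 10 reached 1 CPM in each library. The Polycomb subunits EZH2 at 97.4 ± 3.17 and SUZ12 at 85.0 ± 4.19 TPM were the highest, and the T-box repressor TBX2 was lowest, with 0, 2 and 0 counts. Genes that act on cyclin D stability or bind it were lower: 7 of 9 reached 1 CPM, led by DMTF1, a cyclin D-binding transcription factor, at 28.99 ± 2.35 and SKP2, an F-box protein, at 28.6 ± 0.691 TPM. CRYAB, a partner of the F-box protein FBXO4, had no counts. All 5 genes of CDK4/6 activation and folding were at 1 CPM or more, with the chaperones HSP90AB1 at 2281 ± 45.3 and CDC37 at 511 ± 22.8 TPM highest and MNAT1, a subunit of the CDK-activating kinase, lowest at 41.0 ± 0.966 TPM.

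Downstream of RB, all 10 E2F and DP genes were at 1 CPM or more in each library. The dimer partner TFDP1 at 198 ± 5.53 and E2F4, a repressor E2F, at 113 ± 3.0 TPM were highest, and the activator E2F2 lowest at 7.196 ± 0.567 TPM. Of the 6 partners of RBL1 and RBL2 in the DREAM complex, a repressor of cell cycle genes, the histone chaperone RBBP4 was at 68.3 ± 3.01 and LIN37 at 23.6 ± 1.11 TPM, and the kinase DYRK1A, which promotes assembly, was lowest at 6.79 ± 0.5602 TPM. In the cyclin E/A and CDK2 module CCNA2 at 120.7 ± 3.27 and CDK2 at 81.3 ± 2.92 TPM were highest and CCNE1 lowest at 12.9 ± 1.02 TPM.

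All 14 G1/S target genes of E2F were at 1 CPM or more, with a list median of 160 TPM, the highest of the lists around the axis. The sliding clamp PCNA was at 425 ± 12.6 and the thymidylate synthase TYMS at 412 ± 8.49 TPM, and the replication licensing factor CDT1 was lowest at 46.7 ± 5.16 TPM.

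**Figure D3:**
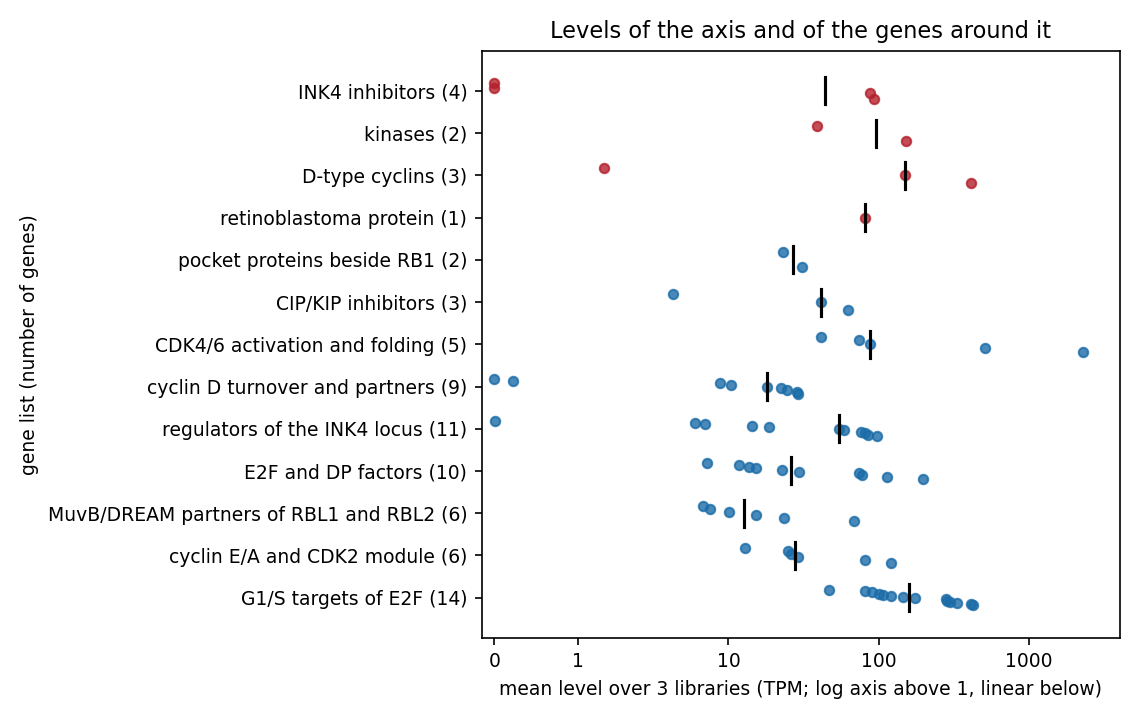
Mean level over the 3 libraries in TPM (horizontal axis, log above 1 and linear below) of each gene (points) in the member groups (red) and in 9 lists around them (blue), with the median of each list as a black line. The G1/S targets of E2F have the highest median of the blue lists, 160 TPM.

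Among 66 other genes of these lists, the one nearest to each member in log2(TPM + 1) over the 3 libraries was found by Euclidean distance. TYMS was nearest to CCND1 (distance 0.05) and the transcription factor ETS1, at 81.1 ± 3.40 TPM, nearest to RB1 (0.05). The helicase subunit MCM4, at 145.7 ± 1.43 TPM, was nearest to both CCND3 (0.07) and CDK4 (0.11), and MCM5, at 89.6 ± 4.24 TPM, to both CDKN2C (0.09) and CDKN2D (0.10). MNAT1 was nearest to CDK6 (0.16) with the 11612-base length. The low CCND2 had no close partner, with the deubiquitinase USP2 at a distance of 1.79. The measure reflects level, since the 3 libraries belong to 1 group.

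The members differed little between the cultures. The highest library exceeded the lowest 1.07-fold in CCND1, 1.103-fold in CDK6, 1.096-fold in CDKN2C, 1.08-fold in RB1, 1.05-fold in CDKN2D, 1.04-fold in CCND3, 1.03-fold in CDK4 and 1.19-fold in the low CCND2, all in CPM. Over the 4546 genes whose mean reached 50 CPM the median was 1.08-fold. CCND1 was highest in replicate 1, at 733, 687 and 691 CPM. CDK6 was highest in replicate 3, at 172, 173 and 189.6 CPM, as was RB1, at 149.996, 148 and 159.9 CPM. CDKN2C was lowest there, at 77.6, 79.8 and 72.8 CPM. CDK4 and CCND3 were nearly level, at 125, 127 and 123 CPM and at 129, 126 and 124 CPM.

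Of the 8 members that could be tested, 4 varied beyond counting noise (edgeR deviance against a chi-square, halved for read pairs, Benjamini-Hochberg adjusted over all genes), while 28.5% of the 14432 genes tested did. With every count taken as independent, not as part of a pair, 4 members and 53.0% of all genes were called. The adjusted p was 1.83e-13 for CCND1, 1.19e-06 for CDK6, 0.00243 for RB1 and 0.0211 for CDKN2C. It was 0.361 for CDKN2D, 0.404 for CCND3, 0.439 for CCND2 and 0.45 for CDK4. With a coefficient of variation of 0.05 allowed for between cultures, no member and 8 genes in all were called. The coefficient that edgeR estimated in common for the genes tested was 0.0546, with every count taken as independent. Each of the 4 calls was lost without 1 library: CCND1 lost it without replicate 1 (adjusted p = 0.739), CDK6 and RB1 without replicate 3 (0.902 and 0.808), and CDKN2C without replicate 2 (0.0955) or replicate 3 (0.616).

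The library differences were also computed with offsets for each library's trend on GC content, chosen after seeing the data. The 2 members with the lowest GC content, RB1 at 37.3% and CDK6 at 39.5%, were the 2 above their mean in replicate 3, by 0.07 and 0.09 on the log2 scale. CDKN2C, at 55.6% GC, stood at -0.07 there, while CCND3 and CDKN2D, with more GC at 60.5% and 61.3%, both stood at -0.03. With the offsets the highest library exceeded the lowest 1.03-fold in CDK6, 1.03-fold in RB1 and 1.05-fold in CDKN2C, and these were no longer called (edgeR deviance, adjusted p = 0.492, 0.533 and 0.366). In CDKN2D it went from 1.05-fold to 1.08-fold and in CCND3 from 1.04-fold to 1.06-fold, without a call. CCND1, at 50.3% GC, was still called, at 1.06-fold (2.57e-11). The part of GC content in these differences was not tested. That left 1 of 8 members, beside 14.4% of all genes tested.

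**Figure D4:**
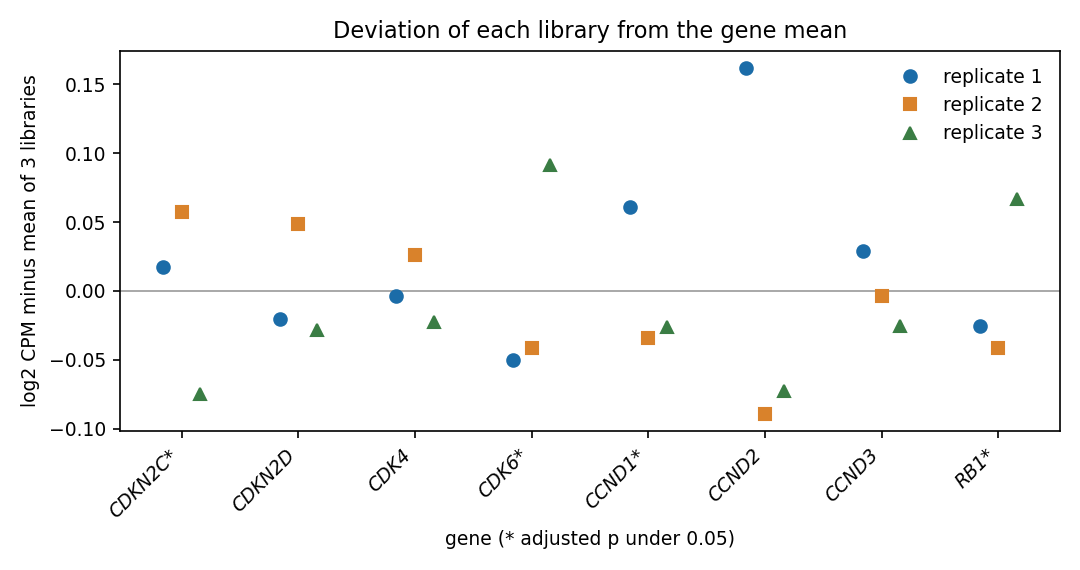
Each library's log2 CPM minus the mean of the 3 libraries (vertical axis) for the 8 members with counts (horizontal axis), with an asterisk at an adjusted p under 0.05. CDK6 and RB1 are highest in replicate 3, CCND1 in replicate 1, and the low CCND2 has the widest spread but no call.

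In the lists around the axis 10 of 14 G1/S targets of E2F varied, and 7 with GC offsets, beside 28.5% and 14.4% of all genes tested. Not all of the 7 were among the 10. Their median spread was smaller, 1.05-fold against 1.11-fold over all genes tested, and the test calls smaller differences at higher counts. The shares called are therefore no measure of how much the lists varied. Among the G1/S targets CDT1 was the widest, at 1.27-fold between libraries (edgeR deviance, adjusted p = 5.57e-10, and 0.00745 with GC offsets). None of the 3 CIP/KIP inhibitors and neither of the other pocket protein genes passed the test. With every count taken as independent 1 CIP/KIP inhibitor and 1 of these pocket protein genes passed, beside 53.0% of all genes tested. Of the genes of CDK4/6 activation and folding 3 of 5 varied in the halved test, and 1 with GC offsets. The DREAM partners had 3 of 6, and 1 with offsets. Of the E2F and DP genes 3 of 10 varied, and 2 with offsets, and of the regulators of the INK4 locus 3 of the 10 tested, and 1 with offsets. Of the genes of cyclin D turnover 2 of the 8 tested varied, and of the cyclin E/A and CDK2 module 1 of 6. The numbers were the same under the offsets, but in cyclin D turnover the genes called were not all the same.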

How the data were processed

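The 3 libraries of the control siRNA group were analysed. The authors deposited raw counts for each RefSeq record. Per the submitters' processing notes, the build was hg19 and the tools included TopHat2, Cufflinks and FastQC. The counter, its strand setting and its treatment of multiply mapped reads are not given in the sources used here. Without a known strand setting, reads of overlapping antisense genes cannot be told apart.

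A gene's count was its record with the largest total, after summing copies of a record. RefSeq accessions identified 6318 of the 6937 records that lacked a symbol, and the rest, left out, held 0.952%, 0.9595% and 0.944% of the record totals. Genes with exactly 2 counts outnumbered those with 1 in each library (712 against 485 in replicate 1), as when each mate of a read pair is counted. TPM used the longest GENCODE 29 transcript linked to any record of the gene, found for 95.9% of counted genes. Where there was none, the longest transcript of the gene was used, so that 98.8% of counted genes had a length.

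TMM scaling and the filterByExpr filter came from edgeR 4.0.16 under R 4.3.3. The deviance of an intercept-only fit with dispersion 0, divided by 2 for pairs, was set against a chi-square and adjusted by Benjamini-Hochberg, with calls at 0.05. In simulated pairs, 20%, 66%, 94% and 100% of genes changed 1.1, 1.25, 1.5 and 2-fold in 1 library passed. Of the unchanged genes 3 passed, of 14522 genes in all. The changed genes were drawn from those with higher counts. Every simulated pair gave 2 counts, with no spread beyond counting noise, so the simulation cannot show how well the halving fits these data. The p-values measure the spread between these 3 samples alone. DESeq2 1.42.0 gave alternative size factors. Other steps used Python 3.11.15, pandas 2.3.3, numpy 2.4.6 and matplotlib 3.10.9.

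The members and lists were chosen with earlier results of these data known. The genes named are all members, every CIP/KIP inhibitor, pocket protein and 9p21 neighbour, and the gene nearest to each member. Of each other list around the axis the 2 highest genes and the lowest are named. Cell markers and genes of other tissues were named outside this rule. Alternatives covered scaling, filters, read pairs, records, length, pseudocount and each library left out; GC offsets, the length of the counted record alone and, for the variation and the sums over families, summed records were added after seeing the data.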

Additional observations from a re-analysis of the deposited data

How the results depend on the processing

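The 8 members at 1 CPM or more in each library stayed 8 under other size factors, no scaling factor, summed records and a level of 0.1 CPM. The number of genes varying beyond counting noise, 4119, became 7656 with every count taken as independent, 8 with a coefficient of variation of 0.05 allowed for and 2072 with GC offsets, and ran from 1297 to 3093 with 1 replicate left out (1297 without replicate 3); with relative log expression or DESeq2 size factors it was 4098, without a filter 3949 and with summed records 6101. The number of varying members, 4, became 0 with that coefficient, 1 with GC offsets and 5 with summed records, where CCND3 was called as well (adjusted p = 0.049, edgeR deviance), and ran from 1 to 3 with 1 replicate left out. As counts without length, the log2 ratio of CDK4 to CDK6 went from 1.97 to -0.51, of CCND1 to CCND3 from 1.47 to 2.48, of CDKN2D to CDKN2C from -0.09 to -0.64 and of RB1 to RBL1 from 1.39 to 1.14. Summed over records, which counts a shared read once for each record, they were 0.98, -0.39, 0.22 and 0.51. With the length of the counted record alone the first was -1.01 and the second 1.43, and the others moved by less than 1 SD. With 1 replicate left out they ran from 1.94 to 2.03, 1.45 to 1.48, -0.11 to -0.07 and 1.36 to 1.41. With summed records, the longest transcript and the length of the counted record alone, all chosen for these sums after seeing the data, the D-type cyclins were 4.16, 2.87 and 1.24 times the kinases (against 2.95), the inhibitors 1.41, 0.808 and 0.393 times (against 0.945), CCND1 43.3%, 75.4% and 72.8% of the cyclins (against 73.2%), CDKN2C 46.3%, 43.3% and 51.5% of the inhibitors (against 51.5%), and RB1 50.2%, 59.9% and 59.9% of the pocket proteins (against 59.9%). The reversals of CDK4 to CDK6 follow from the length used for CDK6, and those with summed records from the number of records of CCND3 and the unequal records of CDKN2C. No paired analysis was possible because the labels give 1 group. Depth limits what can be said of CDKN2A, CDKN2B and their neighbours to the limits of a count of 0.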
